A study of Mus musculus with 35 samples.

Results

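The messenger RNA of 10 transcription factors that maintain hematopoietic stem cells was compared between hematopoietic stem and progenitor cells (HSPCs) of WT and JMJD1B-/- mice. The members were Mecom, Gata2, Runx1, Lmo2, Lyl1, Hlf, Prdm16, Sox4, Gata3 and Foxo3, all of them known regulators of these cells. All 10 were present among the 11982 gene names of the deposited expression table, and all 10 passed the filter on low values that left 11863 genes for testing. RNA-seq had been done on 4 of the 35 samples of the series, 2 libraries per genotype, and the design text of the series calls these biological replicates. The animals were adults of both sexes on a mixed 129P2xC57BL/6J background, and the methods of the study give 1 age range for all its mice and not the age behind each library. WT mice are labelled as wild type. JMJD1B-/- mice carried a gene-trap insertion in Kdm3b, the gene of the histone demethylase JMJD1B, in the germline and therefore in every tissue and not only in blood. The HSPCs came from bone marrow and are a mixture of stem cells and progenitors of several lineages, so for each gene below fewer cells of an expressing type and less RNA per cell cannot be told apart.

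These factors form the regulatory core of blood stem cells. Gata2, Runx1, Lmo2 and Lyl1, together with Tal1, Erg and Fli1, occupy shared enhancers in multipotent progenitors. Lmo2 does not bind DNA itself and bridges GATA factors to Tal1 or Lyl1. Mecom and Prdm16 are related zinc finger proteins of the PR domain family, and both are needed for stem cell maintenance. Hlf marks the most immature cells, Sox4 acts in lymphoid and stem cell programs, Gata3 is best known from T cells but is also used by stem cells, and Foxo3 protects quiescent stem cells from oxidative stress. JMJD1B removes repressive methyl marks from histones, and its human counterpart has been described as an activator of LMO2 in leukemia cells.

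Levels are given in RPKM, read numbers scaled to transcript length in kilobases and to library size, so that levels of different genes can be set side by side. Kdm3b itself measured 30.98 and 24.29 RPKM in WT and 3.996 and 4.628 RPKM in JMJD1B-/- HSPCs, a log2 fold change of -2.65 (SE 0.24, limma adjusted p = 0.0314, with adjusted p above 0.05 under 6 alternatives). Both JMJD1B-/- libraries were thus far below both WT libraries in the targeted gene. The estimated depth was 17500000 and 24600000 reads for WT replicates 1 and 2, and 6110000 and 21000000 reads for JMJD1B-/- replicates 1 and 2. Replicate 1 of JMJD1B-/- was therefore the shallowest library, with 156 table entries listed at 0 against 43 to 53 in the other libraries, and values without it are given where leaving it out changed a call. It also stood apart in markers of T and NK cells, whose summed level was 233 RPKM against 49.5 to 68.6 RPKM elsewhere. Of the stem cell surface markers, Kit was high in all libraries (51.6 to 92.7 RPKM), Cd34 was 42.85 and 43.55 RPKM in WT and 20.92 and 11.74 RPKM in JMJD1B-/- HSPCs, and Ly6a, which encodes Sca-1, was low throughout (0.629 to 2.96 RPKM).

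Of the members, 7 had a lower mean log2 level in JMJD1B-/- HSPCs and 3 a higher one. The WT and JMJD1B-/- libraries did not overlap for 4 members, Mecom, Gata2, Sox4 and Runx1, and all 4 were lower in the knockout. Among all genes tested, 42.9% did not overlap (22.7% lower and 20.1% higher), so non-overlap alone was common. Mecom, Gata2 and Sox4 also passed an unadjusted limma p of 0.05, beside 10.1% of all genes tested in either direction (6.33% lower and 3.81% higher). Over all genes, 751 were lower and 452 higher at that threshold, so 62.4% of calls were lower, and this share was 51.6% under quantile normalization. When a library was left out, the share of all genes past the unadjusted threshold was 21.6% without JMJD1B-/- replicate 1, 21.5% without JMJD1B-/- replicate 2, 2.53% without WT replicate 1 and 4.4% without WT replicate 2, so calls gained or lost in these fits are not comparable with the 10.1% from all 4 libraries. None of the 10 passed after Benjamini-Hochberg adjustment over all genes, while 5 genes of the whole table (0.0421%) did. That number depended on the libraries, at 630 without JMJD1B-/- replicate 1, 669 without replicate 2 and 256 with replicate number as a block, and it was 0 to 18 under the other alternatives. The median log2 fold change of the members was -0.41, against -0.02 for all genes.

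The members spanned 2 orders of magnitude in WT HSPCs. By mean WT level the order was Lmo2 (124.9 RPKM), Gata2 (63.1), Lyl1 (29.95), Runx1 (26.04), Foxo3 (25.22), Sox4 (17.33), Hlf (5.31), Mecom (3.045), Gata3 (1.467) and Prdm16 (0.833 RPKM). In this order the WT libraries of Lyl1 and Runx1 overlapped, as did those of Runx1 and Foxo3, and the WT libraries of the other neighbours did not overlap. Lmo2 was above 97.4% of all listed genes in WT HSPCs, and Prdm16 was above 4.00%. By mean level in JMJD1B-/- HSPCs the order was Lmo2, Gata2, Foxo3, Lyl1, Runx1, Sox4, Hlf, Gata3, Mecom and Prdm16. Among these neighbours the knockout libraries overlapped from Gata2 down to Runx1 and again from Gata3 down to Prdm16, so the order within these stretches is not resolved.

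**Figure D1:**
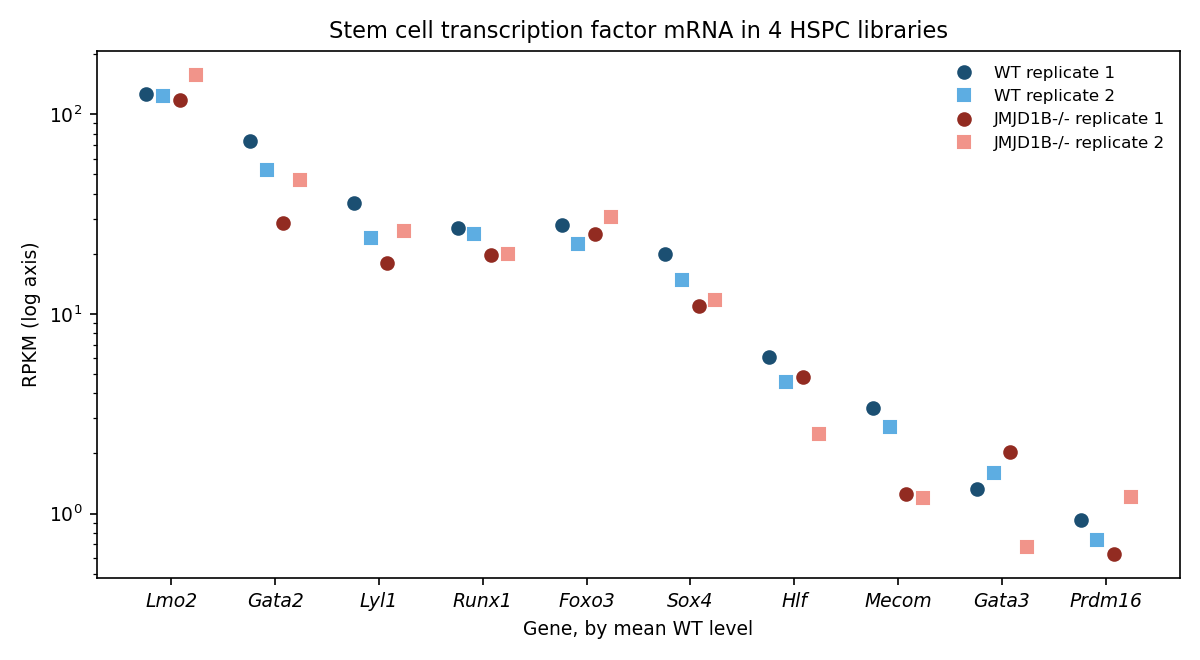
RPKM of the 10 members on a log axis, with 1 point per library (dark circle, replicate 1 and light square, replicate 2 of each genotype), genes ordered by mean WT level. The JMJD1B-/- points lie below both WT points for Gata2, Runx1, Sox4 and Mecom and are interleaved with them for the other 6.

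Mecom encodes the zinc finger factor EVI1 and its longer form MDS1-EVI1, which maintain long-term stem cells. Mecom measured 3.381 and 2.71 RPKM in WT and 1.246 and 1.203 RPKM in JMJD1B-/- HSPCs. The knockout libraries agreed within a factor of 1.036, and their mean of 1.224 ± 0.0303 RPKM (SD, n = 2) was 40.2% of the WT mean of 3.045 ± 0.474 RPKM (SD, n = 2). The log2 fold change was -1.24 (SE 0.44, 95% interval -2.27 to -0.21, limma adjusted p = 0.431). It was the lowest fold change among the members. Mecom is one of the genes that the study itself picked out from these libraries, so its direction is not independent evidence. Sox4, Gata3 and Erg are named by the study from a prediction on genes that changed both in these libraries and in its ChIP-seq data. That prediction drew on target genes of these factors, so they were not named independently of these libraries. Their own RNA is not given as its basis. Because Mecom is a low gene, the reads behind each level were recovered as 327 and 368 in WT and 42 and 140 in JMJD1B-/- HSPCs. The 95% Poisson intervals were 3.03 to 3.77 and 2.44 to 3.0 RPKM in WT, and 0.898 to 1.68 and 1.01 to 1.42 RPKM in the knockout, so the genotypes were separate also when counting error was considered. Leaving out the shallow knockout library left the fold change at -1.26, which still passed the unadjusted threshold, whereas leaving out WT replicate 1 or WT replicate 2 gave -1.09 and -1.39, neither of which passed.

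Gata2, the GATA factor of stem cells, early progenitors and mast cells, measured 73.33 and 52.87 RPKM in WT and 28.39 and 46.9 RPKM in JMJD1B-/- HSPCs. Both knockout libraries were lower than both WT libraries, but JMJD1B-/- replicate 2 came close to WT replicate 2. The means were 63.1 ± 14.46 and 37.65 ± 13.09 RPKM (SD, n = 2 each), and the knockout mean was 59.7% of WT. The log2 fold change was -0.77 (SE 0.28, 95% interval -1.43 to -0.11, limma adjusted p = 0.435). The size of this difference depended on the shallow library, since it was -0.41 without JMJD1B-/- replicate 1 and -1.13 without replicate 2. It no longer passed the unadjusted threshold without JMJD1B-/- replicate 1, nor without WT replicate 1, where it was -0.53. With all 4 libraries it also did not pass in limma without trend or in the gene-by-gene test with equal variances.

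Markers of basophils and mast cells, which also use Gata2, moved with the genotype. Of the 11 such markers tested, 10 were lower in JMJD1B-/- HSPCs at unadjusted p, beside 6.33% of all genes tested. Their summed level was 536 and 605 RPKM in WT and 127 and 59.6 RPKM in the knockout. Their median log2 fold change was -3.10 without JMJD1B-/- replicate 1 and -1.77 without replicate 2. Between the knockout libraries the order was opposite, with the lower Gata2 level in replicate 1 and the lower marker sum in replicate 2. The part of these cells in the Gata2 difference was not tested.

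Sox4, an HMG box factor, measured 19.94 and 14.73 RPKM in WT and 10.91 and 11.77 RPKM in JMJD1B-/- HSPCs. The knockout libraries lay close together and under both WT libraries, with means of 17.33 ± 3.68 RPKM in WT and 11.34 ± 0.612 RPKM in the knockout (SD, n = 2 each). The knockout mean was 65.4% of WT, and the log2 fold change was -0.59 (SE 0.23, 95% interval -1.14 to -0.04, limma adjusted p = 0.474). Sox4 has a single exon, which gave 1668 and 1731 reads in WT and 318 and 1183 reads in JMJD1B-/- HSPCs. Without JMJD1B-/- replicate 1 the fold change was -0.54 and narrowly missed the unadjusted threshold, and without WT replicate 1 it was -0.38 and did not pass either. Nor did Sox4 pass with all 4 libraries in limma without trend or in the gene-by-gene test.

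Runx1, the DNA-binding subunit of core binding factor, was the most evenly measured of the lower members. It had 26.9 and 25.18 RPKM in WT and 19.84 and 20.04 RPKM in JMJD1B-/- HSPCs. The knockout mean of 19.94 ± 0.140 RPKM was 76.6% of the WT mean of 26.04 ± 1.22 RPKM (SD, n = 2 each). Replicates within a genotype differed far less than the genotypes did, yet the log2 fold change of -0.38 (SE 0.19, 95% interval -0.82 to 0.05) did not pass in limma, which shares its estimate of spread over genes (adjusted p = 0.543). Leaving out any single library moved the fold change only between -0.43 and -0.34.

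**Figure D2:**
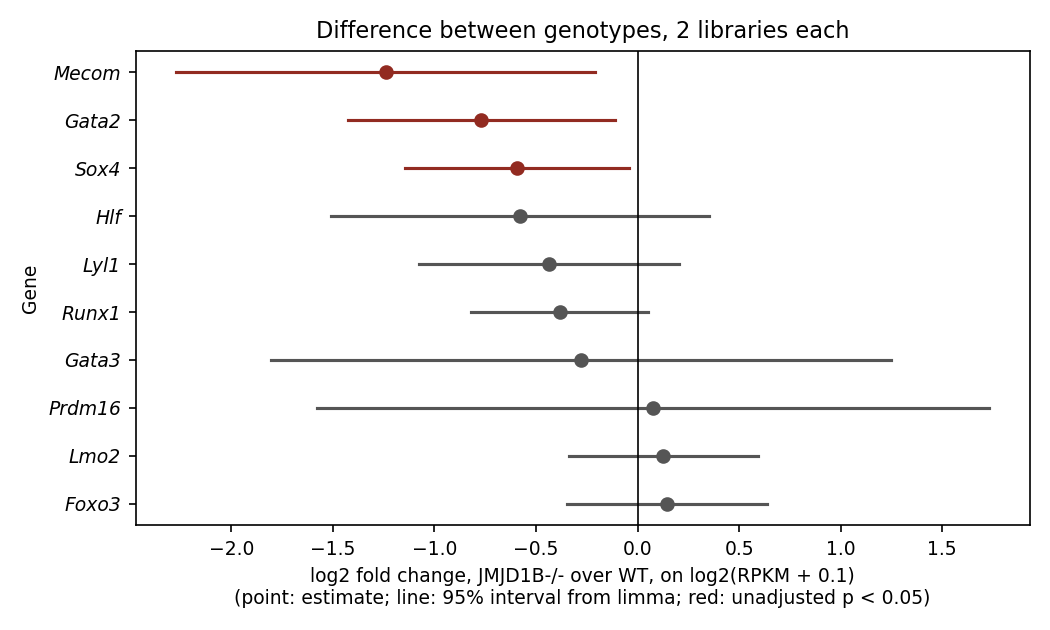
Log2 fold change (JMJD1B-/- over WT) of each member on log2(RPKM + 0.1), with the 95% interval from limma as a line and 2 libraries per genotype. The intervals of Mecom (-2.27 to -0.21), Gata2 and Sox4 lie below 0, and those of the other 7 members cross 0.

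The DNA upstream of these 4 genes is shown because they were the members without overlap between genotypes. The windows are the 250 bases before a RefSeq transcription start, read 5′ to 3′ on the gene's strand from assembly GRCm38.p6 and matched by symbol, since the build named for the expression data is mm9. For Mecom, Gata2 and Runx1, which have more than 1 start, the downstream start is shown. Capitals mark CCAAT boxes (CCAAT, or ATTGG on the other strand) and GATA elements (GATA with A or T before it and A or G after it, on either strand).
Mecom, chr3:30013205-30013454, minus strand: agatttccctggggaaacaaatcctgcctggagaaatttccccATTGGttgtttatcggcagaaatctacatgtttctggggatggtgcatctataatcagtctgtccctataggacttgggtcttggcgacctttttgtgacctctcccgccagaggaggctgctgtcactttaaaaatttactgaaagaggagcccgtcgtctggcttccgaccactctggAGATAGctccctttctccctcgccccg
Gata2, chr6:88198414-88198663, plus strand: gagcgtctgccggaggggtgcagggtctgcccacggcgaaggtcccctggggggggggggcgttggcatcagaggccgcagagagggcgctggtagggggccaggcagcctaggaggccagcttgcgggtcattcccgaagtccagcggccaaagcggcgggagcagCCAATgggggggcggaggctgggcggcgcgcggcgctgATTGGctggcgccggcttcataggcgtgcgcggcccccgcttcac
Runx1, chr16:92697330-92697579, minus strand: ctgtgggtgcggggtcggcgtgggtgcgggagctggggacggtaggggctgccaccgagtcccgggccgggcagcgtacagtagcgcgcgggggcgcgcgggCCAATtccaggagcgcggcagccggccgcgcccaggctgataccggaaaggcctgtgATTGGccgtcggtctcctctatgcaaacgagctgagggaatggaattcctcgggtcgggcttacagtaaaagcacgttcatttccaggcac
Sox4, chr13:28953700-28953949, minus strand: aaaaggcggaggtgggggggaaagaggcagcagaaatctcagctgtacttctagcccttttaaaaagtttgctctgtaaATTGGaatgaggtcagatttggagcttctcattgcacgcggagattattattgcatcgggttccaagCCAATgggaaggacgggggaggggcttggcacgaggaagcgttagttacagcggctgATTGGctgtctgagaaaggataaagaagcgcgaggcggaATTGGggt

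The motif search covered 12 windows of 9 members, with no window for Lmo2. A CCAAT box stood in 6 of the 12 windows, and 33.8% of all 32851 promoter windows held one. Sox4 had 4 copies, the downstream Gata2 window and each Runx1 window had 2, and the downstream Mecom window had 1. The upstream windows of Mecom and Gata2 had none, nor did those of Lyl1, Hlf, Gata3 and Foxo3, while Prdm16, which overlapped between genotypes, had 1. GATA elements stood in 2 of the 12 windows, both of Mecom, against 26.5% of all windows. An E-box (CANNTG) was found in 5 of 12 windows (66.2% of all) and neither TGTGGT nor TGCGGT, letters of the RUNX motif, in any of the 12 (18.6% of all). The motifs were chosen after the windows had been seen, and these matches describe letters only.

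Lmo2 was the most abundant member and did not differ detectably. Its level was 126.8 and 122.9 RPKM in WT and 117.8 and 158.0 RPKM in JMJD1B-/- HSPCs. The knockout libraries fell on either side of the WT pair, with means of 124.9 ± 2.75 and 137.9 ± 28.42 RPKM (SD, n = 2 each). The log2 fold change was 0.13 (SE 0.20, limma adjusted p = 0.862), and its 95% interval of -0.34 to 0.59 leaves room for a moderate change in either direction. Without the shallow knockout library it was 0.34, which also did not pass.

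Lyl1, a basic helix-loop-helix factor that pairs with Lmo2 and is closely related to Tal1, measured 35.95 and 23.95 RPKM in WT and 18.01 and 26.04 RPKM in JMJD1B-/- HSPCs. JMJD1B-/- replicate 2 lay between the WT libraries. The means were 29.95 ± 8.48 and 22.02 ± 5.67 RPKM (SD, n = 2 each), and the log2 fold change of -0.44 (SE 0.27, 95% interval -1.08 to 0.20) did not pass (limma adjusted p = 0.627). It was -0.17 without JMJD1B-/- replicate 1 and -0.70 without replicate 2, where it passed at unadjusted p. The ratio of Lmo2 to Lyl1 RPKM was 3.53 and 5.13 in WT and 6.54 and 6.07 in the knockout, so it was higher in both knockout libraries. This ratio was chosen after the values had been seen and was not tested.

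Foxo3, the forkhead factor of quiescent stem cells, measured 28.05 and 22.38 RPKM in WT and 25.24 and 30.44 RPKM in JMJD1B-/- HSPCs. The libraries were interleaved, with means of 25.22 ± 4.01 and 27.84 ± 3.68 RPKM (SD, n = 2 each) and a log2 fold change of 0.14 (SE 0.21, 95% interval -0.35 to 0.64, limma adjusted p = 0.848). Without JMJD1B-/- replicate 1 the fold change was 0.28. Of 18 known FOXO target genes, all listed and tested, 1 had a lower and 2 had a higher level in the knockout at unadjusted p. Of all genes tested, 6.33% were lower and 3.81% higher at that threshold. The median log2 fold change of the 18 targets was -0.02, as for all genes. Ccng2, an atypical cyclin, measured 16.03 and 16.6 RPKM in WT and 9.951 and 7.048 RPKM in the knockout (log2 fold change -0.95, limma adjusted p = 0.3). Sesn2, a stress-response regulator, measured 2.328 and 1.925 RPKM against 3.478 and 4.692 RPKM (log2 fold change 0.90, limma adjusted p = 0.486). Sod2, the mitochondrial superoxide dismutase, measured 14.73 and 20.96 RPKM against 23.74 and 28.39 RPKM (log2 fold change 0.56, limma adjusted p = 0.489). Ccng2 passed the unadjusted threshold without either knockout library, whereas Sesn2 (0.69) and Sod2 (0.43) did not without JMJD1B-/- replicate 2.

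Hlf, a PAR bZIP factor, measured 6.074 and 4.55 RPKM in WT and 4.83 and 2.512 RPKM in JMJD1B-/- HSPCs. The knockout libraries differed 1.923-fold and only replicate 2 was below both WT libraries. The means were 5.31 ± 1.08 and 3.67 ± 1.64 RPKM (SD, n = 2 each), and the log2 fold change was -0.58 (SE 0.40, 95% interval -1.51 to 0.35, limma adjusted p = 0.653). The knockout libraries held 83.6 and 150 reads (covered bases divided by read length, which need not be whole), with Poisson intervals of 3.87 to 6.01 and 2.13 to 2.95 RPKM, so they differed from each other beyond counting error. The fold change was -1.04 and passed the unadjusted threshold without JMJD1B-/- replicate 1, and it was -0.12 without replicate 2.

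Gata3 measured 1.331 and 1.604 RPKM in WT and 2.028 and 0.68 RPKM in JMJD1B-/- HSPCs, so the knockout libraries held both the highest and the lowest value. They differed 2.983-fold, the widest replicate gap of any member, and their Poisson intervals of 1.45 to 2.77 and 0.497 to 0.906 RPKM (39.9 and 46 reads) did not meet. The log2 fold change was -0.28 (SE 0.65, 95% interval -1.80 to 1.25, limma adjusted p = 0.915). It was -1.0 without JMJD1B-/- replicate 1 and 0.45 without replicate 2, and it turned to 0.07 under quantile normalization, so no direction can be given. The library with the highest Gata3 level was also the one with the high T and NK cell markers. In it Cd3g measured 11.71 RPKM, against 0.444 and 0.4741 RPKM in WT and 1.661 RPKM in the other knockout library. The part of such cells in the Gata3 level was not tested.

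Prdm16 was the lowest member, at 0.9325 and 0.7329 RPKM in WT and 0.6278 and 1.213 RPKM in JMJD1B-/- HSPCs. The knockout libraries enclosed the WT pair, and their Poisson intervals of 0.431 to 0.88 and 1.06 to 1.38 RPKM (33.1 and 220 reads) again did not meet. The log2 fold change was 0.08 (SE 0.71, 95% interval -1.58 to 1.73, limma adjusted p = 0.983), and it was 0.50 without JMJD1B-/- replicate 1 and -0.35 without replicate 2. Set against its relative Mecom, the ratio of Mecom to Prdm16 RPKM was 3.63 and 3.70 in WT and 1.98 and 0.992 in JMJD1B-/- HSPCs. Mecom thus exceeded Prdm16 in both WT libraries and in JMJD1B-/- replicate 1 and equalled it in JMJD1B-/- replicate 2. This ratio was chosen with the values known and was not tested.

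**Figure D3:**
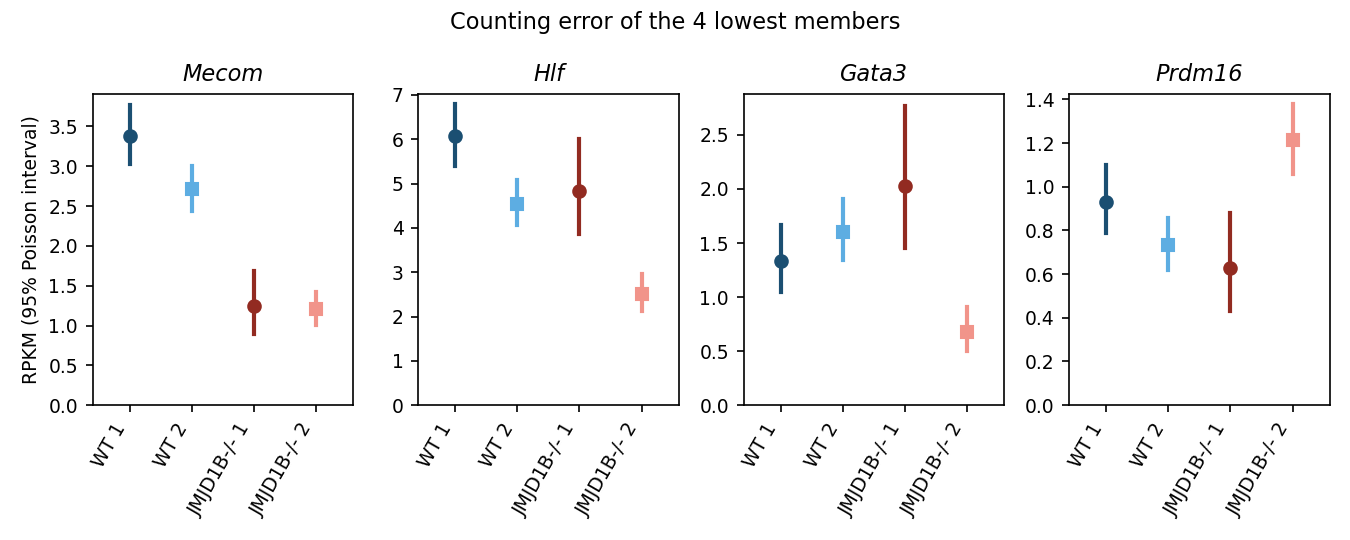
RPKM of the 4 lowest members in each library (points), with 95% Poisson intervals of the recovered reads as lines, on linear axes from 0. The knockout intervals of Mecom overlap each other and lie below those of WT, whereas the 2 knockout intervals of Hlf, Gata3 and Prdm16 do not meet.

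**Figure D4:**
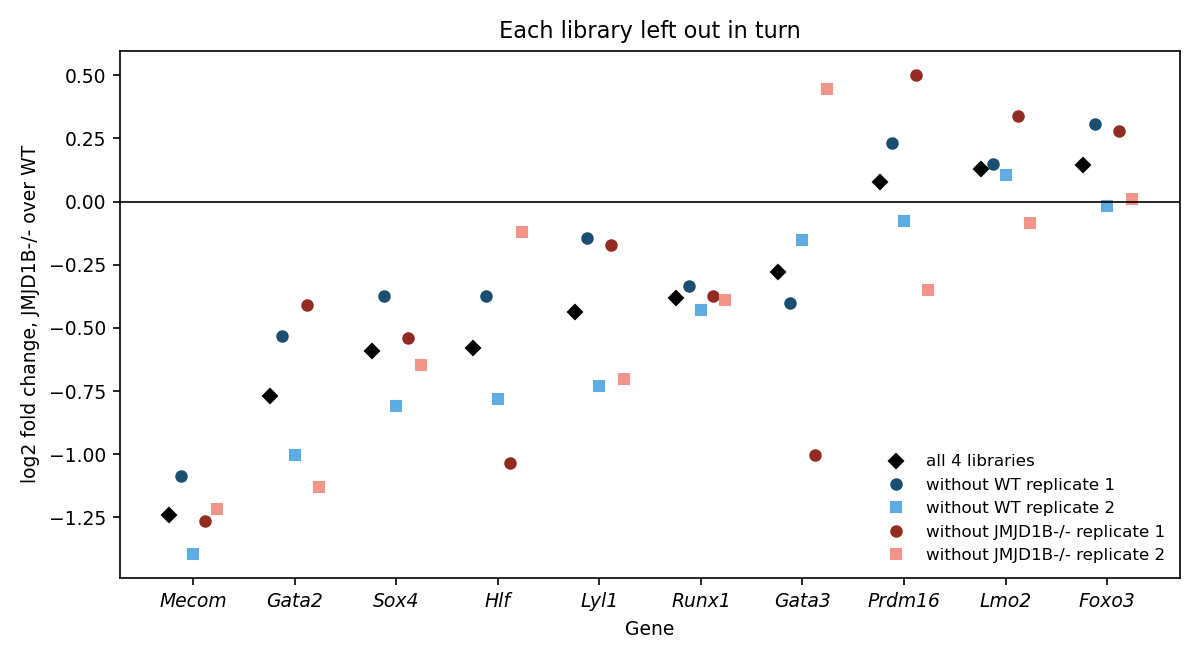
Log2 fold change (JMJD1B-/- over WT) of each member from all 4 libraries (black diamonds) and from the 3 that remain after 1 is dropped (colored points). Mecom, Gata2, Sox4, Hlf, Lyl1 and Runx1 stay below 0 in all 5 fits, and Gata3, Prdm16, Lmo2 and Foxo3 have points on both sides of 0.

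Proteins that act with the members were examined next. Of 14 complex partners and cofactors, 1 was lower and 1 higher at unadjusted p, beside 6.33% and 3.81% of all genes tested. The median log2 fold change of the list was 0.11. Cbfb, the partner subunit of Runx1, measured 42.77 and 40.23 RPKM in WT and 26.73 and 29.53 RPKM in JMJD1B-/- HSPCs (log2 fold change -0.56, limma adjusted p = 0.394). Both subunits of core binding factor therefore had lower levels in both knockout libraries than in both WT libraries, as had 22.7% of all genes tested. The ratio of Runx1 to Cbfb RPKM was 0.629 and 0.626 in WT and 0.742 and 0.678 in the knockout. Ssbp3, which stabilizes LIM domain complexes, measured 13.95 and 14.99 RPKM in WT and 18.1 and 24.82 RPKM in the knockout (log2 fold change 0.55, limma adjusted p = 0.486). Its fold change was 0.32 without JMJD1B-/- replicate 2, which did not pass the unadjusted threshold, and the median of the list changed sign between 0.26 without replicate 1 and -0.05 without replicate 2.

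The remaining factors that share enhancers with Gata2, Runx1, Lmo2 and Lyl1 did not pass the test. Tal1 measured 41.02 and 43.18 RPKM in WT and 47.01 and 60.23 RPKM in JMJD1B-/- HSPCs (log2 fold change 0.34, limma adjusted p = 0.595). Erg measured 12.56 and 11.44 RPKM against 8.802 and 7.844 RPKM (log2 fold change -0.52, limma adjusted p = 0.494). Fli1 measured 46.92 and 40.09 RPKM against 38.26 and 35.3 RPKM (log2 fold change -0.24, limma adjusted p = 0.687). Of the 7 factors, Gata2, Runx1, Erg and Fli1 had lower and Tal1 higher levels without overlap between genotypes, where 42.9% of all genes did not overlap, and Gata2 alone passed the unadjusted threshold. Without JMJD1B-/- replicate 1, Tal1 (log2 fold change 0.52) and Erg (-0.61) passed that threshold and Gata2 (-0.41) did not, in a fit where 21.6% of all genes passed.

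Of 23 relatives of the members by gene family, 19 were listed and 18 tested, with a median log2 fold change of -0.14. At unadjusted p 1 was lower and 1 higher, beside 6.33% and 3.81% of all genes tested. Gata1, the erythroid and megakaryocytic GATA factor that takes over sites from Gata2 as progenitors mature, measured 32.79 and 35.93 RPKM in WT and 44.49 and 63.58 RPKM in JMJD1B-/- HSPCs (log2 fold change 0.63, limma adjusted p = 0.425). The ratio of Gata2 to Gata1 RPKM was 2.24 and 1.47 in WT and 0.638 and 0.738 in the knockout. Gata2 was thus the more abundant of the pair in both WT libraries and Gata1 in both knockout libraries, a ratio that was chosen after the values had been seen and was not tested. Lmo4 measured 20.23 and 17.13 RPKM in WT and 14.68 and 6.888 RPKM in the knockout (log2 fold change -0.88, limma adjusted p = 0.477). Both genes depended on JMJD1B-/- replicate 2, without which Gata1 was at 0.37 and Lmo4 at -0.34 and neither passed the unadjusted threshold. Without replicate 1 they were at 0.89 and -1.42.

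Of 31 further regulators of stem and progenitor cells, 27 were listed and tested. At unadjusted p 3 were lower and 1 higher, beside 6.33% and 3.81% of all genes tested. Their median log2 fold change was -0.25, and it was -0.04 without JMJD1B-/- replicate 1 and -0.33 without replicate 2. Meis1, the homeodomain partner of HOX proteins, measured 53.91 and 39.65 RPKM in WT and 24.08 and 37.44 RPKM in JMJD1B-/- HSPCs (log2 fold change -0.62, limma adjusted p = 0.491). Its partner Pbx3 measured 3.623 and 4.652 RPKM against 1.933 and 2.325 RPKM (log2 fold change -0.92, limma adjusted p = 0.477). The zinc finger repressors Gfi1 and Gfi1b passed the unadjusted threshold in opposite directions. Gfi1, used by stem cells and granulocyte precursors, measured 3.476 and 3.738 RPKM in WT and 2.354 and 0.7319 RPKM in the knockout (log2 fold change -1.37, limma adjusted p = 0.486). Gfi1b, used by erythroid cells and megakaryocytes, measured 24.28 and 23.19 RPKM in WT and 35.52 and 50.69 RPKM in the knockout (log2 fold change 0.84, limma adjusted p = 0.309). Without JMJD1B-/- replicate 1, Meis1 (-0.30) and Pbx3 (-0.79) no longer passed the unadjusted threshold. Without replicate 2, Gfi1 (-0.59) did not pass, against -2.15 without replicate 1, while Gfi1b passed in both cases (1.09 and 0.58).

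Of 14 factors that drive maturation along 1 lineage, 12 were listed and 11 tested. At unadjusted p 2 were lower and 1 higher, beside 6.33% and 3.81% of all genes tested. Their median log2 fold change was -0.65, and it was -1.10 without JMJD1B-/- replicate 1 and -0.27 without replicate 2. Cebpa, the granulocyte and monocyte factor, measured 13.36 and 12.66 RPKM in WT and 1.054 and 2.36 RPKM in JMJD1B-/- HSPCs (log2 fold change -2.96, limma adjusted p = 0.0768). Irf8, a monocyte and dendritic cell factor, measured 45.92 and 55.01 RPKM against 33.3 and 9.343 RPKM (log2 fold change -1.5, limma adjusted p = 0.42). Klf1, the erythroid Krüppel-like factor, measured 23.02 and 30.98 RPKM against 52.05 and 74.55 RPKM (log2 fold change 1.22, limma adjusted p = 0.197). All 3 passed the unadjusted threshold without either knockout library, at -2.41 and -3.5 for Cebpa, 1.48 and 0.96 for Klf1, and -2.42 and -0.59 for Irf8 without replicate 1 and replicate 2.

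**Figure D5:**
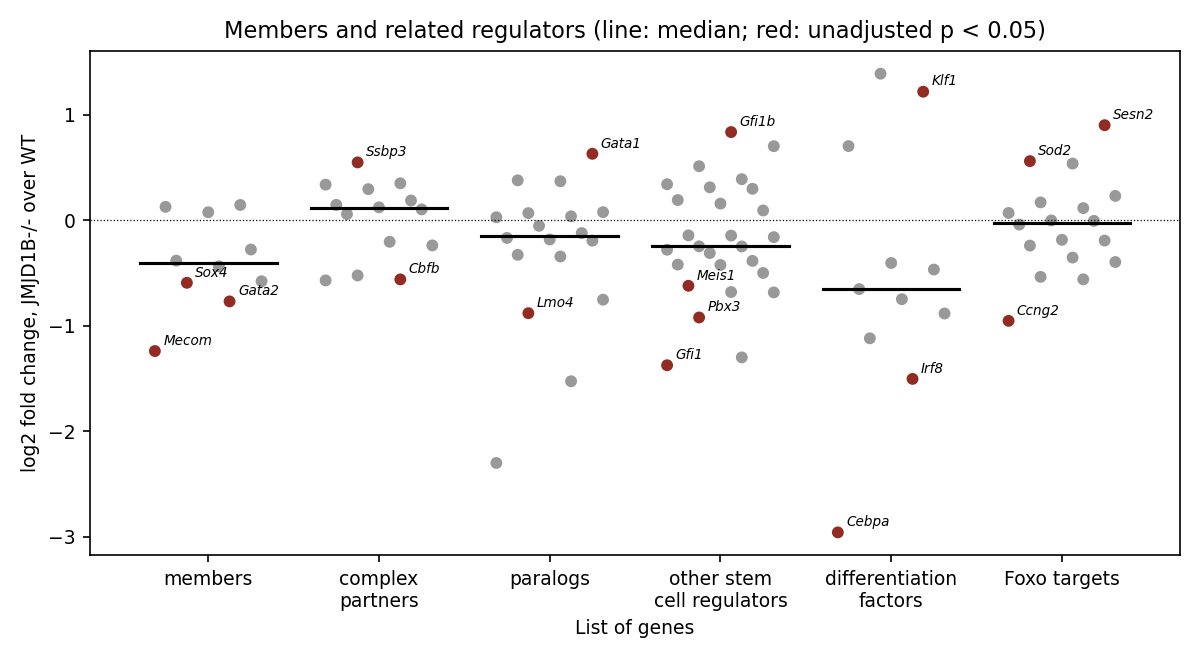
Log2 fold changes (JMJD1B-/- over WT) of the members and of 5 lists of related genes, with 1 point per tested gene, the median of each list as a line and genes under an unadjusted limma p of 0.05 in red and named. The medians of the members (-0.41) and of the differentiation factors (-0.65) lie below those of the complex partners (0.11) and FOXO targets (-0.02).

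Markers of other cell types changed beside these regulators. Of 16 stem and progenitor cell markers tested, 7 were lower and none higher at unadjusted p, with a median log2 fold change of -0.94 and summed levels of 309 and 318 RPKM in WT and 201 and 215 RPKM in JMJD1B-/- HSPCs. The 7 were Cd93, Cd34, Vwf, Ctnnal1, Flt3, Cd48 and Tek, of which Flt3 and Cd48 are known from progenitors more than from the most primitive stem cells and Vwf also from megakaryocytes. Slamf1 (log2 fold change -0.12) and Esam (-0.25) did not pass. Of 12 erythroid markers, 10 were higher, and their sum was 851 and 1240 RPKM in WT and 2280 and 3460 RPKM in the knockout. Of 9 megakaryocyte markers, 6 were lower, with sums of 705 and 654 RPKM against 286 and 398 RPKM. For the erythroid factors Gata1, Gfi1b and Klf1 and for Mecom, which megakaryocytes also express, the part of these shifts was not tested. Of 9 granulocyte markers tested, 6 were lower and 2 higher (sums 298 and 206 against 91.1 and 57.5 RPKM), and of 7 monocyte and macrophage markers 3 were lower (107 and 111 against 90.0 and 25.3 RPKM). Of 20 T and NK cell markers, 6 were higher and 1 lower, of 4 B cell markers 1 was lower (sums 9.9 and 14.6 against 43.4 and 7.66 RPKM), and of 11 stromal and endothelial markers 3 were lower (72.9 and 94.3 against 40.8 and 36.5 RPKM). Among all genes tested, 10.1% passed at unadjusted p, 6.33% lower and 3.81% higher. Median log2 fold changes without JMJD1B-/- replicate 1 and without replicate 2 were -0.82 and -0.86 for stem and progenitor cell markers. They were 1.81 and 1.24 for erythroid, -0.49 and -0.93 for megakaryocyte, and -2.23 and -1.23 for granulocyte markers. They were -1.66 and -0.51 for monocyte and macrophage markers, and -1.92 and -0.79 for stromal and endothelial markers. For T and NK cell markers they were 0.15 and 2.31, and for B cell markers -1.81 and -0.003. Il7r, which stands on both lymphoid lists, made up 39.35 RPKM of the B cell sum in JMJD1B-/- replicate 1. Among all these markers only Robo4 (JMJD1B-/- replicate 1), Camp (WT replicate 2 and JMJD1B-/- replicate 1) and Vpreb3 (every library except JMJD1B-/- replicate 1) were listed at 0.

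The genes whose pattern over the 4 libraries was most like that of Mecom, among 11213 genes with a mean of at least 1 RPKM, were Gm3002, Hexa and Gcet2. Their distances from Mecom, over log2 levels centred on each gene's mean, were 0.06, 0.10 and 0.12. Hexa, a lysosomal hexosaminidase subunit, measured 27.22 and 23.96 RPKM in WT and 11.11 and 10.39 RPKM in JMJD1B-/- HSPCs, about the Mecom pattern at a higher level. The nearest to Gata2 were Eif2c4, Zfp442 and Ptger3, at distances of 0.07, 0.07 and 0.09. Ptger3, a prostaglandin E2 receptor, measured 10.15 and 7.936 RPKM in WT and 3.971 and 6.738 RPKM in the knockout. With 4 libraries such likeness is a description of these values only.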

How the data were processed

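Polyadenylated RNA of HSPCs from 2 WT and 2 JMJD1B-/- samples had been sequenced, and the other 31 samples were not used here. The authors deposited 1 table of RPKM per gene and library with 1 added to each value. The submitters' processing notes name TopHat2, Novoalign and mm9, and the counting program and annotation are not given in the sources used here. No gene has a highest deposited value under 2.0001, so genes low in all libraries are missing from the table.

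Here RPKM was the deposited value minus 1, and the 84 rows that shared 42 names were averaged, which leaves 11982 names from 12024 rows. Depth was estimated from whole-number ratios of low values, and 353 of 414 such genes gave the same relative depth (tolerance of a whole number 0.01). For the scale, 52 one-exon genes gave 1 depth in units of reads. Another 24 gave a depth 51 times as high, in units of bases. The read totals are this second depth divided by 51, and the values fitted coverage in bases divided by 51-base reads. A floor of 3 reads on 1 kb is 0.122 to 0.491 RPKM. Intervals and floors cover counting error only.

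Genotypes were compared with limma 3.58.1 in R 4.3.3 on log2(RPKM + 0.1), with trend, two-sided, no replicate block, over the 11863 genes with a mean of at least 0.5 RPKM and with Benjamini-Hochberg adjustment. Fold changes are on this scale, which understates changes of low genes. An exact permutation of 2 against 2 cannot go below p = 0.333, so none is given. Whether the replicates are separate animals or pools is not stated, so p-values measure the spread between these libraries.

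Members and lists were chosen with earlier results of these data known. Named genes were all members, Kdm3b, Tal1, Erg and Fli1, up to 6 genes per list of regulators at unadjusted p under 0.05, and the 3 genes nearest in profile to the 2 members of lowest p. Markers and ratios were added as descriptions. Spi1 and Adgre1 are listed under the older names Sfpi1 and Emr1. Promoter windows came from RefSeq (GRCm38.p6). Alternatives were other pseudocounts, filters, scalings, tests and left-out libraries.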

Additional observations from a re-analysis of the deposited data

How the results depend on the processing

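Mecom, Gata2, Sox4, Runx1, Lyl1 and Hlf kept a log2 fold change below 0 under every alternative run, over ranges of -1.39 to -0.86, -1.13 to -0.41, -0.81 to -0.38, -0.43 to -0.34, -0.73 to -0.14 and -1.04 to -0.12. The other 4 changed sign when single libraries were left out, over ranges of -0.084 to 0.34 for Lmo2, -0.35 to 0.50 for Prdm16, -1.0 to 0.45 for Gata3 and -0.017 to 0.31 for Foxo3, and Gata3 was 0.074 under quantile normalization. The number of members at unadjusted p was 3 of 10, beside 10.1% of all genes, and was 1 in limma without trend (Mecom). Which members passed changed when a library was left out. The share of all genes that passed changed as well, so members called in those fits are not counted here. Runx1 passed under quantile normalization and in the gene-by-gene test with equal variances, which called Mecom and Runx1 alone. After adjustment 1 member passed in 1 alternative, Gata2 without JMJD1B-/- replicate 2 (limma adjusted p = 0.019, range over its alternatives 0.019 to 1). Over all genes, leaving out a library gave 177 to 1819 lower and 123 to 1258 higher genes. Without WT replicate 1 they were 177 and 123, without WT replicate 2 272 and 250, without JMJD1B-/- replicate 1 1309 and 1258, and without JMJD1B-/- replicate 2 1819 and 727. A lone library in a group was assumed to vary like the other group. Fold changes of the named genes on other lists, and counts of called genes in those lists, were also computed without each knockout library, an alternative chosen after seeing the data. The cause of these changes was not tested.

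The labels link replicates of the 2 genotypes only by number, and do not state whether libraries of the same number were prepared together. Deviations of the replicate 1 libraries from their genotype means correlated at -0.0543 over genes. With the replicate block, 914 genes were lower and 571 higher, the fold change of Mecom was -1.24 and no longer passed the unadjusted threshold, those of Gata2 (-0.77) and Sox4 (-0.59) did, and 256 genes against 5 passed adjustment, with 0 members. Prdm16 has no value with a mean of at least 1 RPKM. Kdm3b stayed lower and passed the unadjusted threshold at every setting, but in limma its adjusted p of 0.0314 became 0.0603 under median-ratio scaling, 0.0991 under quantile normalization, 0.212 without trend, 0.796 without WT replicate 1 and 0.619 without WT replicate 2, and the gene-by-gene test gave an adjusted p of 0.608 (range over its alternatives 1.08e-06 to 0.796). With 6110000 reads, JMJD1B-/- replicate 1 limits the low genes Mecom, Gata3 and Prdm16 most, at 33.1 to 42 reads each.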

Other observations

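Within the lists of regulators, 3 genes singled out after their values were seen were high in JMJD1B-/- replicate 1 alone, the library with the highest Gata3 level. Tcf7, a T cell factor, measured 1.434 and 1.484 RPKM in WT and 8.674 and 1.801 RPKM in JMJD1B-/- HSPCs. Id2, an inhibitor of E proteins used by innate lymphoid cells, measured 6.686 and 9.246 RPKM against 26.94 and 6.111 RPKM. Klf2, a factor of resting lymphocytes that is also a FOXO target, measured 6.209 and 11.97 RPKM against 25.67 and 6.122 RPKM. None of the 3 passed in limma, with adjusted p of 0.554, 0.722 and 0.799.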
